A study of Homo sapiens with 8 samples.

Results

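The LAPTM family of lysosomal membrane proteins has 3 genes in the platform annotation, LAPTM4A, LAPTM4B and LAPTM5. They were taken by gene symbol from the 14884 named genes on the array, and each was read by 1 transcript cluster, a set of probes along one gene (16894894 for LAPTM4A, 17071208 for LAPTM4B and 16684310 for LAPTM5). The family was chosen by its measured difference between the cell lines, which ran in opposite directions for LAPTM5 and LAPTM4B, so differences of the members between lines are given below as a description with no test. The rule did not use the effect of the SIRT6 hairpin, which was tested. That test is not independent of the choice, since the MM1.S scramble arrays enter both the line difference and the hairpin effect in MM1.S.

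The arrays were GeneChip Human Gene ST arrays hybridised with RNA of NCI-H929 and MM1.S, human multiple myeloma lines grown from purchased stocks. NCI-H929 with a short hairpin against SIRT6 (shSIRT6), NCI-H929 with a scramble hairpin, MM1.S with shSIRT6 and MM1.S with scramble had 2 arrays each, 8 in all. SIRT6 is an NAD-dependent deacetylase of chromatin. Every group thus carries a hairpin construct. Its vector, and whether duplicate arrays hold RNA from different cultures, are not stated in the labels, so p-values measure the spread between arrays, which may be technical.

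LAPTM proteins span the membrane of late endosomes and lysosomes, the compartments where cells break down proteins and lipids taken from the surface. Their tails carry short proline- and tyrosine-containing motifs that bind ubiquitin ligases of the NEDD4 family, and through them these proteins take part in sorting receptors and transporters towards the lysosome. LAPTM5 is made mainly by blood cells, where it promotes the lysosomal breakdown of T and B cell receptors. LAPTM4A and LAPTM4B are found in many tissues. LAPTM4B is often raised in carcinomas and has been tied to the traffic of the EGF receptor, to a leucine transporter at the lysosome and to ceramide, and LAPTM4A to the enzyme that makes the globoside Gb3.

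The promoter sequences of LAPTM5, a gene very unequal between the lines, and LAPTM4A, nearly equal between them, are shown. Both are the 250 bases before the RefSeq start of the gene in build GRCh38.p14, on the minus strand, at chr1:30757775-30758024 for LAPTM5 and chr2:20051629-20051878 for LAPTM4A. Capitals mark matches, on either strand, to 5 short motifs that were searched, the CCAAT box (CCAAT), the GC box (GGGCGG), the TATA box (TATAAA), an ETS-type core (GGAAGT) and the E-box read by MiT/TFE factors of lysosomal genes (TCACGTG).
LAPTM5: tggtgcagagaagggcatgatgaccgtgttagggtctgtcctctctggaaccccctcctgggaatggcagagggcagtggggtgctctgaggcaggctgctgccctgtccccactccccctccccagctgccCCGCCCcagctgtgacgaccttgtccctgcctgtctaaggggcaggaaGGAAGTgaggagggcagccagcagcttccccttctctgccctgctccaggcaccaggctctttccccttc
LAPTM4A: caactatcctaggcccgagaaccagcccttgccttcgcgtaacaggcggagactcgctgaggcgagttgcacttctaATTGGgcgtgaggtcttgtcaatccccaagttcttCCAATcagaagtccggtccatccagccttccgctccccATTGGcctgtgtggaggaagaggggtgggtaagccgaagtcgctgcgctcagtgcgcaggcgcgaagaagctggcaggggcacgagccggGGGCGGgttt
The LAPTM5 window held 1 GC box, which began 118 bases before the start, and 1 ETS-type core, 70 bases before it. The LAPTM4A window held 3 CCAAT boxes, 173, 138 and 100 bases before the start, and 1 GC box at 10 bases. Among 35116 RefSeq promoters of this length, 32.0% held a CCAAT box, 42.6% a GC box, 19.5% the ETS-type core, 10.7% the TATA box and 3.31% the E-box. Neither window held the TATA box or the E-box, which says only that these letters do not occur there. No matches overlapped.

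LAPTM5 was the gene with the widest gap between the lines among the 12734 genes tested. Its log2 level was 4.79 and 5.31 in NCI-H929 with shSIRT6 and 4.32 and 5.01 in NCI-H929 with scramble. In MM1.S it was 12.76 and 12.78 with shSIRT6 and 12.80 and 12.84 with scramble. All 4 NCI-H929 arrays lay far below all 4 MM1.S arrays, while the constructs overlapped within NCI-H929. With scramble the level averaged 4.67 ± 0.49 in NCI-H929 and 12.82 ± 0.03 in MM1.S (SD, n = 2 each), a log2 difference of −8.155, or 285-fold lower in NCI-H929. With shSIRT6 it averaged 5.05 ± 0.37 in NCI-H929 and 12.77 ± 0.01 in MM1.S (SD, n = 2 each), a log2 difference of −7.72. The rank by size was 1 of 12734 with either construct. LAPTM5 stayed above the level of 3.045 under which genes were left out, but no background reading of its probes was used, so folds over a low level are approximate.

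LAPTM4B ran the other way. Its log2 level was 10.01 and 10.00 in NCI-H929 with shSIRT6 and 10.05 and 9.99 in NCI-H929 with scramble. In MM1.S it was 5.55 and 5.48 with shSIRT6 and 4.83 on both arrays with scramble. The NCI-H929 arrays were high and near each other, the MM1.S arrays low, and within MM1.S both shSIRT6 arrays lay above both scramble arrays. With scramble the level averaged 10.02 ± 0.04 in NCI-H929 and 4.83 ± 0.00 in MM1.S (SD, n = 2 each), a log2 difference of 5.19, or 36.5-fold higher in NCI-H929. With shSIRT6 it averaged 10.005 ± 0.007 in NCI-H929 and 5.515 ± 0.049 in MM1.S (SD, n = 2 each), a log2 difference of 4.49 and 22.5-fold. Among genes higher in NCI-H929 it ranked 9 with shSIRT6 and 5 with scramble. LAPTM4B has pseudogenes, and whether its probes also read their transcripts was not tested.

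LAPTM4A was nearly level across all groups. It read 9.67 and 9.59 in NCI-H929 with shSIRT6, 9.82 and 9.74 in NCI-H929 with scramble, 9.54 and 9.40 in MM1.S with shSIRT6 and 9.68 and 9.39 in MM1.S with scramble. The NCI-H929 arrays stood slightly above the MM1.S arrays of the same construct, by log2 differences of 0.25 with scramble and 0.16 with shSIRT6. The scramble difference is close to the spread of the MM1.S scramble arrays (SD 0.21, n = 2). Its rank by size was 7149 of 12734 with scramble.

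**Figure D1:**
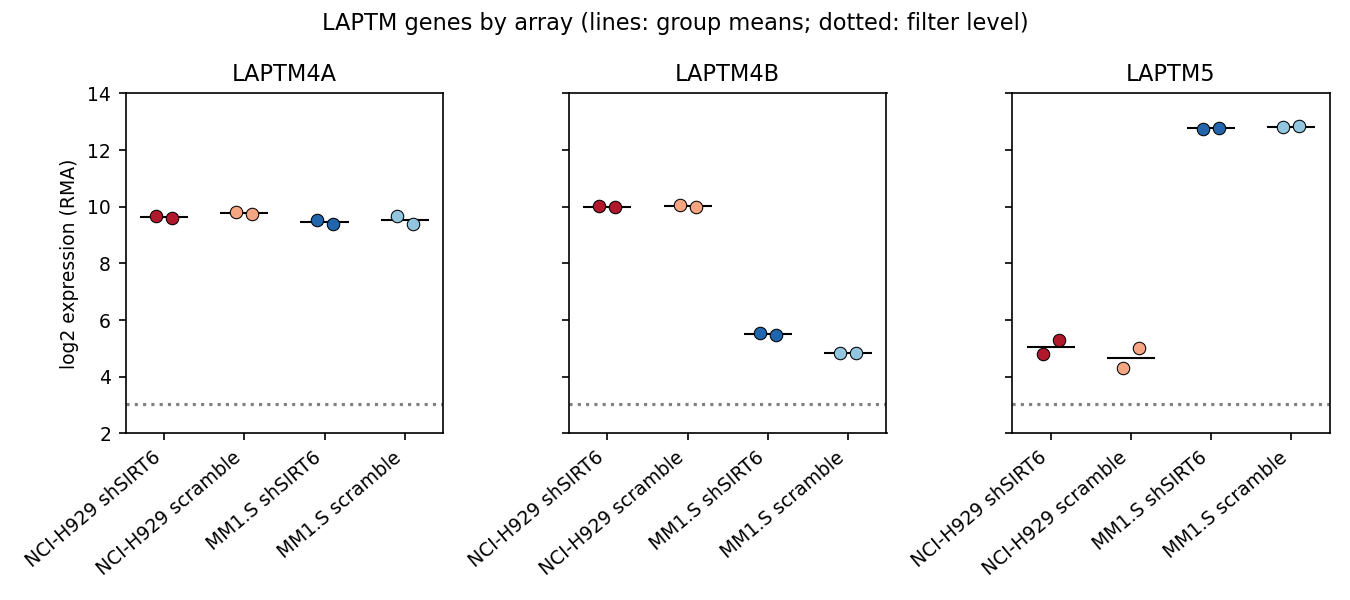
Log2 expression (RMA, vertical axis) of LAPTM4A, LAPTM4B and LAPTM5 on each of the 8 arrays, 2 points per group of line and construct, with group means as short lines and the filter level of 3.045 as a dotted line. LAPTM4A lies between 9.39 and 9.82 on every array, LAPTM4B is near 10.0 in NCI-H929 and from 4.83 to 5.55 in MM1.S, and LAPTM5 is from 4.32 to 5.31 in NCI-H929 and from 12.76 to 12.84 in MM1.S.

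LAPTM4B was higher with the SIRT6 hairpin than with scramble in MM1.S, and no other member passed the test in either line. LAPTM4B rose in MM1.S by a log2 change of 0.685 ± 0.090 (SE), or 1.61-fold, with a 95% interval of the fold from 1.39 to 1.86 (limma, Benjamini-Hochberg adjusted p = 0.0234). It was 1 of 3 members called, where 1.33% of all tested genes passed in this line, 0.204% upward and 1.12% downward. By size of change it ranked 11 among the 26 genes called higher there. The call was lost in 8 of 18 alternatives, among them each of the 4 fits that left out 1 MM1.S array (adjusted p from 0.0997 to 0.175), leaving out either NCI-H929 scramble array (0.0694 each) and fitting MM1.S alone (0.129), while the change itself stayed between 0.65 and 0.72.

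In NCI-H929, where LAPTM4B was already high, its change was −0.015 ± 0.090 (SE) with a 95% interval of −0.23 to 0.20 (limma, adjusted p = 0.955). The change in NCI-H929 minus that in MM1.S was −0.70 ± 0.13 (SE), which did not pass over all genes (limma, adjusted p = 0.108, unadjusted p = 0.000755). The mean over both lines was 0.335 ± 0.064, which did not pass either (adjusted p = 0.0772, unadjusted p = 0.000985). The rise was thus called in MM1.S and not in NCI-H929, while the test of the difference between the lines did not pass the threshold of 0.05. With a prior variance that follows the level of a gene, both values passed (limma, adjusted p = 0.00496 for the difference and 0.00608 for the mean). That option raised the calls over all genes from 26 to 430 for the difference and from 11 to 911 for the mean. It takes the level as the mean over all arrays, a level that LAPTM4B had on none of them.

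The difference of LAPTM5 between shSIRT6 and scramble was 0.385 ± 0.24 (SE) in NCI-H929, with a 95% interval of −0.18 to 0.95, and −0.05 ± 0.24 in MM1.S, with an interval of −0.61 to 0.51 (limma, adjusted p = 0.494 and 0.930). The NCI-H929 value rested on single arrays, since it was 0.04 without scramble replicate 1 and 0.73 without scramble replicate 2. In MM1.S both shSIRT6 arrays lay just under both scramble arrays. That of LAPTM4A was −0.15 ± 0.12 in NCI-H929 and −0.065 ± 0.12 in MM1.S, with intervals of −0.44 to 0.14 and −0.36 to 0.23 (adjusted p = 0.605 and 0.804). In NCI-H929 these intervals run from a 1.13-fold fall to a 1.93-fold rise for LAPTM5 and from a 1.36-fold fall to a 1.10-fold rise for LAPTM4A. In MM1.S they run from a 1.53-fold fall to a 1.43-fold rise for LAPTM5 and from a 1.28-fold fall to a 1.17-fold rise for LAPTM4A.

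Over the family, 0 of 3 members were called in NCI-H929, where 0.0236% of all genes were, 0.0157% higher and 0.00785% lower (limma; 0 members at an unadjusted p below 0.05). For the mean over lines and for the difference between lines 0 of 3 were called as well, against 0.0864% of all genes for the mean, all of them lower, and 0.204% for the difference, 0.196% higher and 0.00785% lower (limma; 1 member each at an unadjusted p below 0.05, LAPTM4B). SIRT6, the target of the hairpin, was lower on both shSIRT6 arrays than on both scramble arrays in each line. It read 6.25 and 6.31 in NCI-H929 with shSIRT6 and 6.53 and 6.97 with scramble, and 5.60 and 5.78 in MM1.S with shSIRT6 and 6.09 and 5.88 with scramble, with log2 differences of −0.47 (95% interval −0.85 to −0.09) and −0.295 (−0.67 to 0.08). Neither passed over all genes (limma, adjusted p = 0.276 and 0.355, unadjusted p = 0.0211 and 0.108), nor did the mean over lines of −0.3825 (−0.65 to −0.12, adjusted p = 0.135, unadjusted p = 0.0111).

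**Figure D2:**
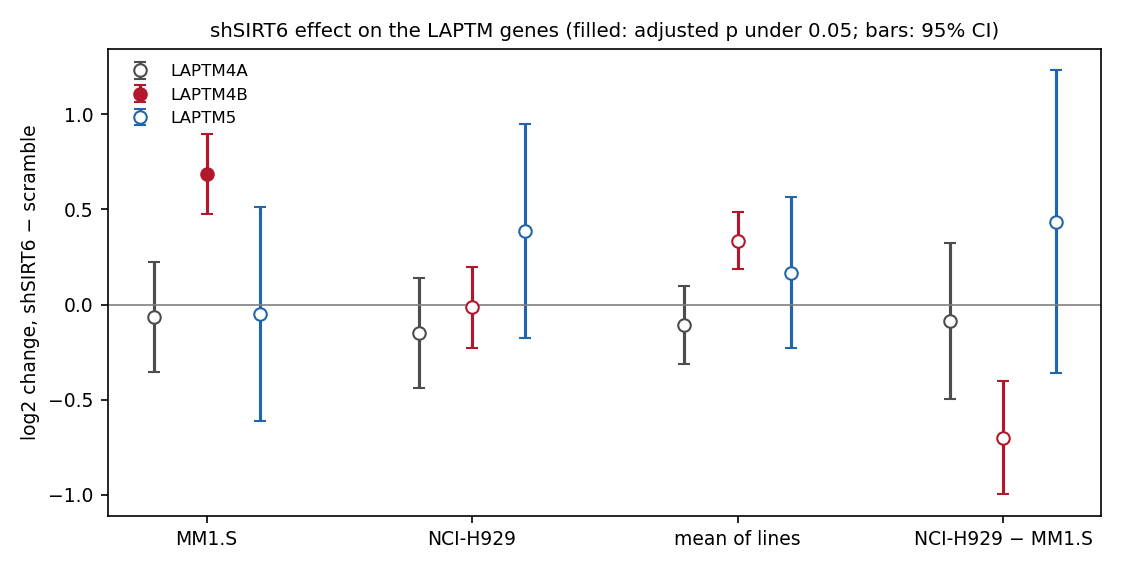
Log2 change with shSIRT6 over scramble (vertical axis) for each LAPTM gene in MM1.S, in NCI-H929, as the mean of both lines and as NCI-H929 minus MM1.S, with 95% intervals from limma. LAPTM4B in MM1.S, at 0.685, is the one filled point, which marks an adjusted p below 0.05, and the interval of LAPTM5 is the widest in each comparison.

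**Figure D3:**
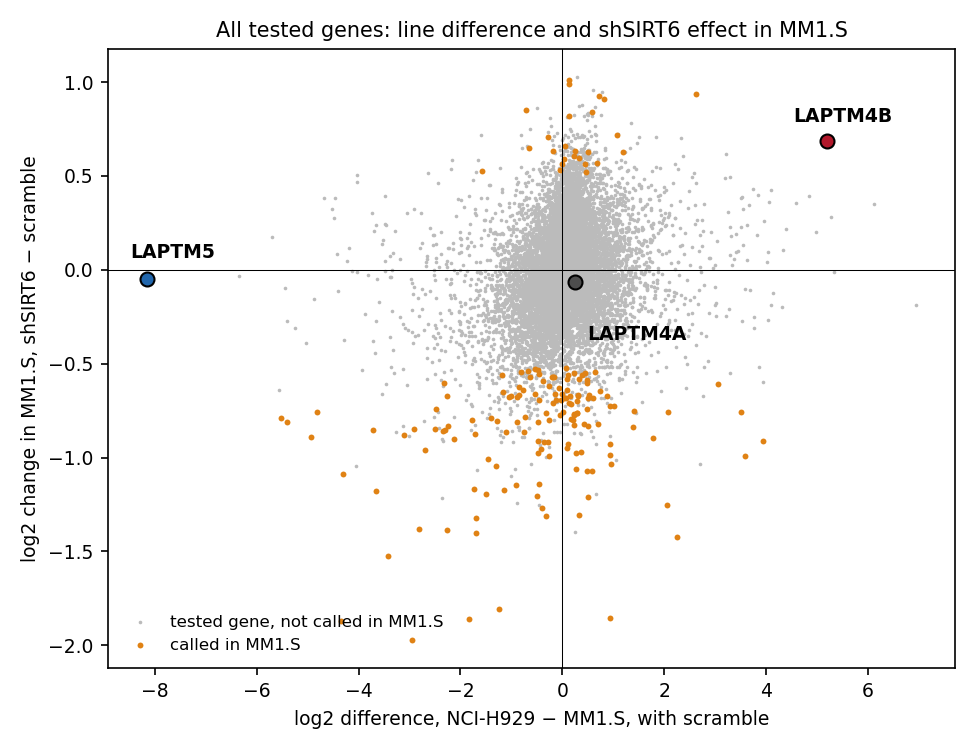
Each of the 12734 tested genes by its log2 difference of NCI-H929 minus MM1.S with scramble (horizontal axis) and its log2 change with shSIRT6 in MM1.S (vertical axis), with the 169 genes called in MM1.S in orange. LAPTM5 is the point farthest left at −8.155, LAPTM4B stands far right at 5.19 and above 0 at 0.685, and LAPTM4A lies in the centre of the cloud.

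The genes next to each member on its chromosome were set beside it, as the 5 nearest tested genes on either side in the RefSeq order. Around LAPTM4B on chromosome 8, 8 of 10 neighbours had a positive log2 difference of NCI-H929 minus MM1.S with scramble, with a median of 0.94 against 0.03 over all tested genes. MTDH, also called metadherin, is the nearest tested gene on one side and differed by 2.55. RIDA, a deaminase, differed by 1.94, RPL30, a ribosomal protein, by 1.585, PTDSS1, a phosphatidylserine synthase, by 1.57, and CPQ, a peptidase, by 1.06. LAPTM4B, whose family was chosen by its line difference, exceeded each of these at 5.19, and NIPAL2 went the other way at −0.83. DNA copy number was not measured, and its part in these differences was not tested.

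The medians around the other members were below 0. Around LAPTM5 on chromosome 1, 4 of 10 neighbours were positive, with a median of −0.18 and a range from −1.13 to 0.825, against −8.155 for LAPTM5 itself. Around LAPTM4A on chromosome 2, 3 of 10 were positive, with a median of −0.35 and a range from −0.78 to 1.045. With shSIRT6 in MM1.S, the neighbours of LAPTM4B ranged from −0.645 to 0.59 with a median of 0.06, and the smallest adjusted p among them was 0.159, that of RIDA (limma). Among the neighbours of LAPTM4A 1 of 10 was called in MM1.S, SDC1, where 1.33% of all tested genes were called.

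Each LAPTM gene also had a syndecan gene, coding for a heparan sulfate proteoglycan of the cell surface, among its 10 neighbours. SDC1, which codes for the plasma cell antigen CD138, lay near LAPTM4A, SDC2 near LAPTM4B and SDC3 near LAPTM5. A matrilin gene or its antisense partner (MATN2, MATN1-AS1) was among the tested neighbours of LAPTM4B and LAPTM5. Untested genes were not looked at, and 3 of them lay between LAPTM4A and WDR35, its nearest tested gene on one side. Whether a matrilin gene also lies near LAPTM4A is therefore not shown. With scramble the log2 differences of the syndecan genes, NCI-H929 minus MM1.S, were 0.47 for SDC1, −0.02 for SDC2 and 0.105 for SDC3. Those of the LAPTM genes were 0.245 for LAPTM4A, 5.19 for LAPTM4B and −8.155 for LAPTM5. The difference of SDC1 passed (limma, adjusted p = 0.00485). With shSIRT6 the differences were −0.125 for SDC1, −0.095 for SDC2 and 0.68 for SDC3. With shSIRT6 in MM1.S, SDC1 read 8.73 and 8.72 against 8.18 and 8.23 with scramble, a rise of 0.52 ± 0.091 (SE, limma, adjusted p = 0.0461), a call lost in 12 of 18 alternatives.

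**Figure D4:**
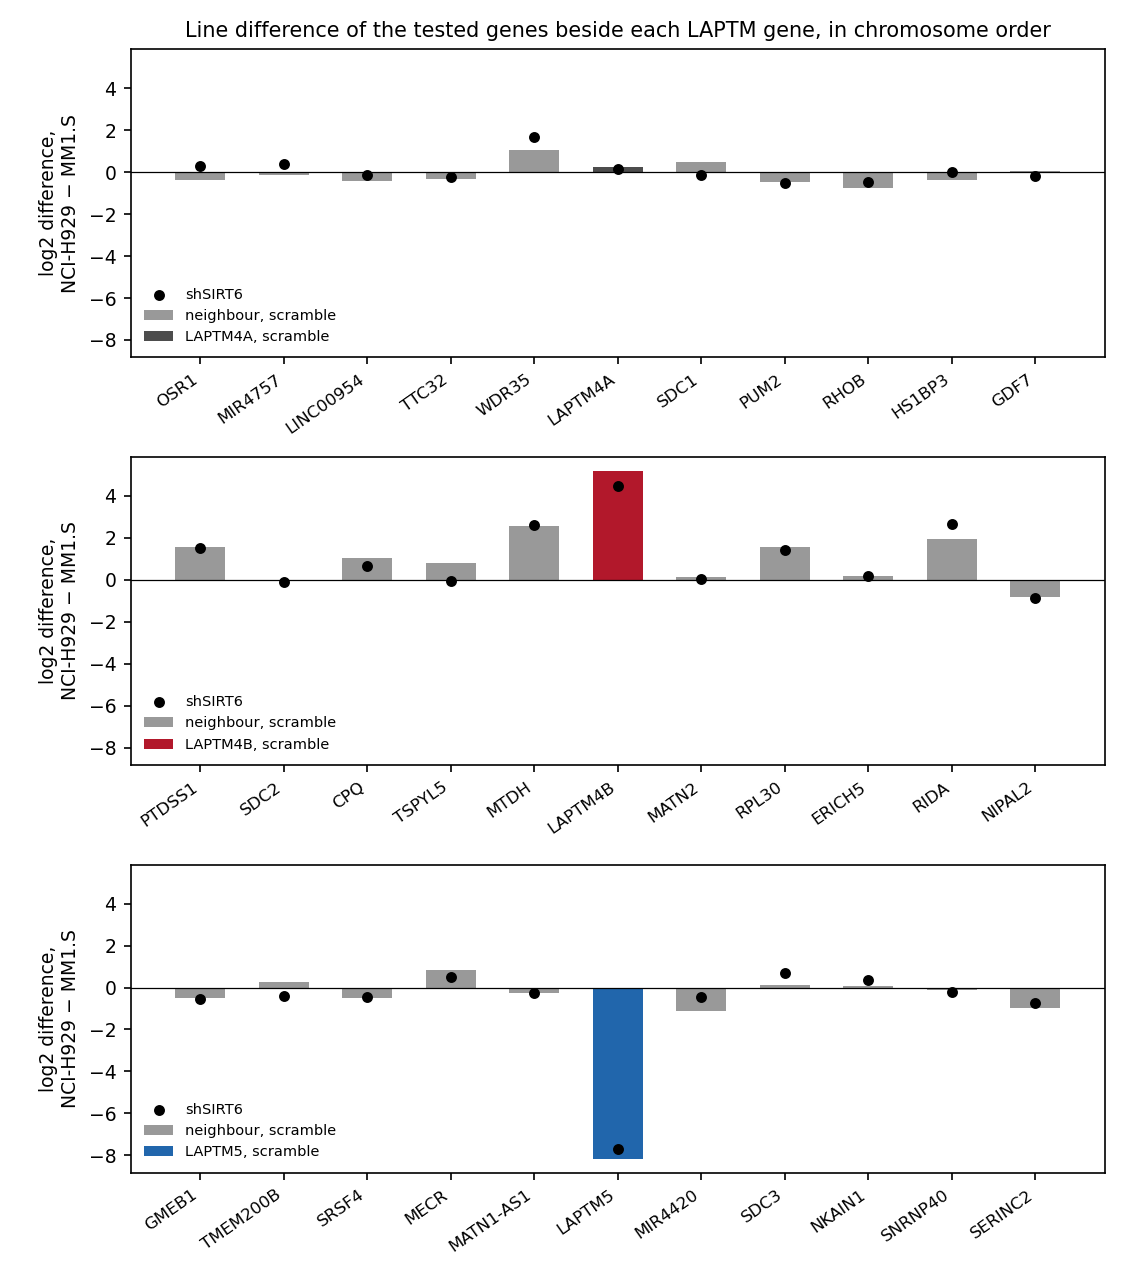
Log2 difference of NCI-H929 minus MM1.S (vertical axis) for each LAPTM gene, in colour, and its 5 nearest tested genes on either side in chromosome order, with scramble as bars and shSIRT6 as points. The neighbours of LAPTM4B reach 2.55 (MTDH) with scramble, while those of LAPTM5 lie between −1.13 and 0.825.

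Tested ubiquitin ligases of the family that binds LAPTM tails were unequal between the lines by small amounts. NEDD4 and NEDD4L themselves had no named row and were not tested. Of 11 listed ligases and adaptors of the NEDD4 family 7 were tested, and with scramble 5 differed (limma, adjusted p below 0.05), 2 higher and 3 lower in NCI-H929, where 38.3% of all tested genes differed, 20% higher and 18.3% lower. ITCH, a ligase that limits lymphocyte activation, read 10.68 and 10.66 in NCI-H929 and 10.02 and 9.99 in MM1.S, a log2 difference of 0.665 ± 0.089 (SE, limma, adjusted p = 0.000829). WWP1 was higher by 0.56 ± 0.093, and SMURF2 (−0.525 ± 0.11), the adaptor NDFIP2 (−0.43 ± 0.097) and WWP2 (−0.35 ± 0.096) were lower (adjusted p from 0.00235 to 0.0227). The call was lost in 5 of 17 alternatives for WWP2, in 3 for NDFIP2 and in 2 for SMURF2, with adjusted p up to 0.139, 0.0616 and 0.0526. SMURF1 (0.145) and NDFIP1 (0.105) did not pass. With shSIRT6 over scramble 0 of 7 were called in either line (limma; 1 in each at an unadjusted p below 0.05). Of 12 reported partners and cargo, among them B cell receptor chains, 2 were tested, EGFR and CD247, with group means from 3.24 to 4.03, not far above the filter level, and neither was called between lines with scramble (limma, adjusted p = 0.787 and 0.561; 0 at an unadjusted p below 0.05).

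Lysosomal hydrolases and their activators were more often higher than lower in NCI-H929, the line low in LAPTM5 and high in LAPTM4B. Of 28 tested (49 listed), 14 were higher and 6 lower with scramble, 71.4% against the 38.3% of all genes, with a median of 0.34 against 0.03. A high share called was not particular to this list. Over the 117 tested genes of 6 lists, this one included, it was 61.5%. The other lists are membrane proteins, lysosomal regulators, sphingolipids, NEDD4 ligases and blood cell genes. PLBD2, a phospholipase B-like protein, was higher by a log2 difference of 1.755 ± 0.12 (SE), the cysteine proteases CTSB and CTSF by 1.575 ± 0.093 and 1.51 ± 0.13, and SIAE, which removes acetyl groups from sialic acids, by 1.24 ± 0.098 (limma, adjusted p from 1.77e-05 to 9.63e-05). When the clusters of a gene were averaged, the difference of SIAE was 0.51. With shSIRT6 the counts were 12 higher and 8 lower (37.9% of all genes differed, 18.4% higher and 19.5% lower), with a median of 0.31.

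Other lysosomal membrane proteins split evenly. Of 23 tested (42 listed), 7 were higher and 8 lower in NCI-H929 with scramble, with a median of −0.015. That is 65.2% in all, against 38.3% of all genes, 20% higher and 18.3% lower. With shSIRT6 6 were higher and 7 lower, 56.5% against 37.9%, with a median of −0.085. GPR137B, a regulator of mTORC1 at the lysosome, was higher by 3.865 ± 0.16 (SE) and CD68, a heavily glycosylated protein of the lysosomal membrane, by 1.90 ± 0.11, whereas LAMP3, a lysosomal protein of maturing dendritic cells, and the ion channel TMEM63A were lower, with log2 differences of −2.32 ± 0.18 and −1.785 ± 0.11 (limma, adjusted p from 3.92e-06 to 6.33e-05). None of these differences was as large as that of LAPTM5 or LAPTM4B, but the LAPTM family was chosen by its line difference.

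Regulators of mTORC1 and of MiT/TFE transcription factors on the lysosome showed 4 higher and 7 lower of 22 tested (35 listed) with scramble, 50% against the 38.3% of all genes, with a median of −0.05. With shSIRT6 2 were higher and 9 lower, 50% against 37.9%, with a median of −0.23. RHEB, the GTPase that switches mTORC1 on, and FNIP2, a partner of folliculin, were lower in NCI-H929, with log2 differences of −1.245 ± 0.11 and −0.865 ± 0.094 (SE), while the Rag GTPase RRAGA was higher by 1.355 ± 0.15 and WDR59 of the GATOR complexes by 1.065 ± 0.11 (limma, adjusted p from 0.000144 to 0.000327). Of the sphingolipid genes, 18 tested of 37 listed, 5 were higher and 2 lower with scramble, 38.9%, which is close to the share of all genes. That holds for the adjusted threshold only. At an unadjusted p below 0.05 (limma) there were 13 of 18, where 46% of all genes were. UGCG, which makes glucosylceramide, was higher by 0.705 ± 0.14, GLTP, a glycolipid transfer protein, by 0.62 ± 0.12 and the ceramide synthase CERS2 by 0.53 ± 0.10, and the sphingomyelin synthase SGMS1 was lower at −0.705 ± 0.088 (limma, adjusted p from 0.000608 to 0.00525). With shSIRT6 4 sphingolipid genes were higher and 2 lower, 33.3% against 37.9%. Their median was 0.31 with scramble and 0.125 with shSIRT6. The difference of UGCG with shSIRT6 was 0.355 and did not pass (limma, adjusted p = 0.0828). The proton pump of the lysosome, 21 listed subunits, had 0 tested genes, since none had a named row.

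With shSIRT6 the share of genes called on these lists was near that of all genes. Of 117 tested genes on the lists of hydrolases, membrane proteins, lysosomal regulators, sphingolipids, NEDD4 ligases and blood cell genes, 2 were called in MM1.S, 1.71% against 1.33% of all genes. At an unadjusted p below 0.05 (limma) there were 24, or 20.5% against 19.6%. CTSD, the aspartic protease cathepsin D, read 9.66 and 9.82 in MM1.S with shSIRT6 and 9.10 and 9.19 with scramble, a rise of 0.595 ± 0.10 (SE, adjusted p = 0.0452). GPR155, a cholesterol sensor of the lysosomal membrane, read 5.08 and 4.42 with shSIRT6 and 6.02 on both arrays with scramble, a fall by 1.27 ± 0.21 on the log2 scale (adjusted p = 0.0418). Both separations were complete, but the calls were lost in 12 and 10 of 18 alternatives. In NCI-H929 0 of the 117 were called, where 0.0236% of the whole table was, and 13 had an unadjusted limma p below 0.05, or 11.1% against 14.5%.

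LAPTM5 marks blood cells, so other genes of blood cells and markers of other cell types were compared between the lines. Of 19 tested blood cell genes (28 listed), 6 were higher and 8 lower in NCI-H929 with scramble, 73.7% against the 38.3% of all genes, with a median of 0.125. With shSIRT6 3 were higher and 6 lower, 47.4% against 37.9%, and the median was −0.16. LCP1, the actin bundler L-plastin, read 7.77 and 7.67 in NCI-H929 and 11.35 and 11.29 in MM1.S, a log2 difference of −3.60 ± 0.10 (SE), whereas CD53, a tetraspanin, was higher by 0.93 ± 0.093 and CD48 by 0.855 ± 0.10 (limma, adjusted p from 1.22e-06 to 0.000494). ARHGDIB was lower like LCP1. It read 6.14 and 6.12 in NCI-H929 and 8.79 and 8.78 in MM1.S with scramble, a log2 difference of −2.655.

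Markers of plasma cells, the cells myeloma arises from, and of other cell types were read in all groups. Of 13 plasma cell markers 9 had a named row and all 9 passed the filter, with group means of 11.25 to 11.715 for IRF4, a transcription factor of plasma cells, and of 8.205 to 8.725 for SDC1. Group means of POU2AF1 and CD27, further markers of this stage, ran from 5.02 to 5.415. Of these 9, 4 were higher and 1 lower in NCI-H929 with scramble (limma, adjusted p below 0.05), 55.6% against the 38.3% of all genes. CD38 (log2 difference 0.885), XBP1 (0.66) and SDC1 (0.47) were among the higher, and the 1 lower was SLAMF7 (−0.605). FCRL5, an Fc receptor-like protein of the B lineage, averaged 7.27 in NCI-H929 and 3.325 in MM1.S with scramble, a log2 difference of 3.945. With shSIRT6 it averaged 7.055 in NCI-H929 and 2.725, under the filter level, in MM1.S, a log2 difference of 4.33. The summed log2 level of 7 T and NK cell markers was 33.17 to 33.64 in NCI-H929 with shSIRT6, 31.65 to 31.91 in NCI-H929 with scramble, 32.11 to 33.32 in MM1.S with shSIRT6 and 31.90 to 32.17 in MM1.S with scramble. That of 7 myeloid markers was 25.45 to 25.66 in NCI-H929 with shSIRT6, 24.82 to 25.20 in NCI-H929 with scramble, 25.04 to 25.72 in MM1.S with shSIRT6 and 24.46 to 24.76 in MM1.S with scramble. In NCI-H929 minus MM1.S with scramble 0 of 7 tested T and NK markers and 0 of 5 myeloid markers were called (limma; 0 and 0 at an unadjusted p below 0.05). Of 5 tested B cell markers 2 were called, 40% against 38.3% of all genes, with CR2 lower (−2.43) and BANK1 higher (1.345). BANK1 read 4.73 and 3.82 in NCI-H929 with scramble and averaged 2.93, under the filter level, in MM1.S with scramble, and its difference was 0.89 without NCI-H929 scramble replicate 1. Of 8 stromal markers 1 was tested and not called (0 at an unadjusted p below 0.05), with DCN and LUM under the filter level. The part of these cell types in the LAPTM differences was not tested.

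**Figure D5:**
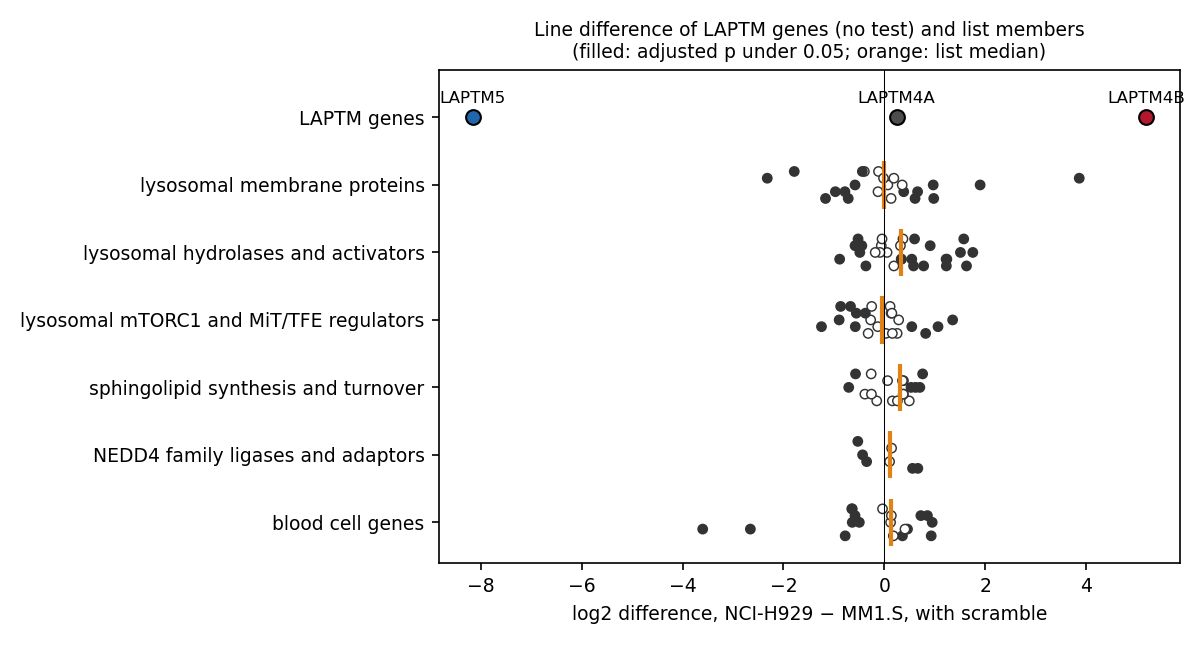
Log2 difference of NCI-H929 minus MM1.S with scramble (horizontal axis) for the 3 LAPTM genes, which were not tested, and for the tested members of 6 lists, filled where the adjusted p is below 0.05, with the list median in orange. LAPTM5 at −8.155 and LAPTM4B at 5.19 lie beyond every list member, the farthest of which are GPR137B at 3.865 and LCP1 at −3.60. The LAPTM family was chosen by this difference.

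The tested genes whose pattern over the 8 arrays was nearest to each member were found by the root mean square difference of log2 levels after centring each gene on its own mean. For LAPTM5 they were QPCT, a glutaminyl cyclase (0.815), SYCP3, a protein of meiotic chromosomes (1.17), and LPXN, the adaptor leupaxin of blood cells (1.17), with log2 differences of NCI-H929 minus MM1.S with scramble of −6.34, −5.69 and −5.45. No gene came within 0.5 of LAPTM5, whose family was chosen by its line difference. QPCT and SYCP3 averaged below the filter level of 3.045 in NCI-H929, unlike LAPTM5.

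For LAPTM4B the nearest were CTAG1A, a cancer-testis antigen with a near-identical copy that its probes may also read (0.181), MLC1, a membrane protein (0.227), and TSSC2, a pseudogene (0.272), and 10 genes lay within 0.5. Their log2 changes with shSIRT6 in MM1.S were 0.395, 0.20 and 0.28, against 0.685 for LAPTM4B, and none was called (limma, adjusted p = 0.145, 0.584 and 0.396). For LAPTM4A, which hardly varied, 216 genes lay within 0.1, the nearest being ARF3, a GTPase of the Golgi (0.0411), the nucleoporin NUP35 (0.0457) and the clock repressor CRY1 (0.0475).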

How the data were processed

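Gene expression was read on 8 arrays, 2 for each of the 4 groups of line and construct. The deposited values are log2 expression per transcript cluster. RMA, Transcriptome Analysis Console and build hg19 are named, with no version, per the submitters' processing notes. RMA makes arrays comparable in distribution, so a shift common to all genes would not be seen. Array medians ran from 3.88 to 3.97, and arrays of a group correlated at 0.989 to 0.992. No other column of sample values was present (0).

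Of the rows, 16098 carried 1 gene symbol, 0 several and 32128 none. The cluster with the highest mean was kept per gene, and those averaging over 3.045, the 30th percentile of all clusters, were tested, 12734 in all, with all 3 LAPTM genes among them. A model of the 4 groups was fitted in R 4.3.3 with limma 3.58.1 (4 residual and 3.43 prior degrees of freedom), and p-values were adjusted by Benjamini-Hochberg over all tested genes, with a threshold of 0.05. With 2 arrays a group, the smallest two-sided p of an exact permutation test is 0.333. The code was tested on simulated data. The LAPTM genes, the 13 gene lists and the tests were chosen with earlier results of these data known. Named genes are the LAPTM genes, SIRT6, up to 4 members of a list by lowest p, all tested NEDD4 ligases and partners, 5 neighbours on either side and 3 nearest patterns per LAPTM gene, and a few markers chosen after their values were seen (IRF4, POU2AF1, CD27). Gene order and promoters came from RefSeq (GRCh38.p14). Promoters are shown for LAPTM5 and LAPTM4A, and that of LAPTM4B was not analysed here. Alternatives changed the normalization, filter, cluster rule, prior variance, arrays in the fit and replicate block. The main fit did not pair arrays by replicate number. Deviations from group means correlated at −0.04 to 0.08 between groups. These correlations run over all tested genes, so they cannot show whether replicates share effects on some genes, and the labels do not say.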

Additional observations from a re-analysis of the deposited data

How the results depend on the processing

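The differences of the LAPTM genes between lines kept their direction in all 17 alternatives, from −8.50 to −7.81 for LAPTM5 with scramble and from 5.12 to 5.22 for LAPTM4B. LAPTM4B with scramble moved to 5.12 under quantile normalization, below the range of 5.16 to 5.22 over left-out arrays. The upper end of that range was the fit without NCI-H929 scramble replicate 2. LAPTM5 with shSIRT6 read −8.01 with a replicate block within each line, against −7.98 to −7.46 over left-out arrays. With that block the line difference compares fitted levels of replicate 1 and not group means. The value of −8.01 is thus a different quantity and does not show that the difference of group means moved.

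The rise of LAPTM4B in MM1.S stayed between 0.65 and 0.72. Its call was lost with MM1.S alone (0.685, adjusted p = 0.129), with the replicate block within each line (0.685, 0.119) and without 6 of the 8 arrays in turn. The replicate block over all groups kept it (adjusted p = 0.0460). A prior variance with a trend brought the mean over lines (0.335) and the difference between lines (−0.70) past the threshold.

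Small changes that no fit called turned sign, and the cause was not tested. LAPTM4B in NCI-H929 went to 0.04 under quantile and 0.0644 under cyclic loess normalization and ran from −0.045 to 0.015 over left-out arrays. LAPTM4A in MM1.S ran from −0.21 to 0.08 and its difference between lines from −0.23 to 0.06, the mean of LAPTM5 over lines from −0.005 to 0.34, and EGFR between lines from −0.025 to 0.115.

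The counts of all genes called depended strongly on the fit. In MM1.S 169 became 314 with the stricter filter, 953 with a prior trend, 78 with the replicate block over all groups, 0 with that within lines or with MM1.S alone, and 0 to 84 over left-out arrays. In NCI-H929 3 became 194 with the prior trend and 0 under quantile and cyclic loess normalization, no filter, mean of clusters, robust prior, NCI-H929 alone, both blocks and each left-out array. For the mean over lines 11 became 4 and 5 under quantile and cyclic loess normalization, 98 with the stricter filter, 911 with the prior trend and 0 with both blocks and each left-out array. For the difference 26 became 430 with the prior trend, 5 and 0 with the blocks and 2 to 6 over left-out arrays. The lone array of a group was then assumed to vary like the others. Called NEDD4 ligases between lines with scramble ran from 2 to 5, and in MM1.S with shSIRT6 called hydrolases from 0 to 6 and membrane proteins from 0 to 2. The number of arrays limits the precision.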
